A study of Rattus norvegicus with 45 samples.

Results

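Col1a1, Fn1, Loxl1, Mmp14 and Nid2 are 5 genes of the extracellular matrix that were followed in RNA-seq values from the ventral tegmental area (VTA) of male rats, 5 of the 32883 Ensembl genes in the deposited table. They were picked by name, with earlier results of these data known, from the collagen, fibronectin and matrix remodeling genes whose names could be read. Other such genes with readable names, Mmp2, Mmp15 and Mmp17 among them, were left out of the 5. Each of the 5 was matched by its Ensembl identifier. All 5 were among the 22570 genes tested. Wild-type Sprague-Dawley rats self-administered (SA) saline or heroin for 10 d, received a viral vector in the VTA on day 11, and gave tissue after 30 d of forced abstinence. The vector was empty (labelled GFP), or expressed the histone variant H3.3 as wild type (H3.3 WT) or as H3.3Q5A, which has alanine in place of the glutamine at position 5 that dopamine can be attached to. This gave 6 groups and 44 rats, with 7 rats in each of the saline groups, 7 that received H3.3 WT after heroin, and 8 each that received the empty vector or H3.3Q5A after heroin. Every rat, controls included, had catheter surgery and an infusion of a vector that also carries GFP, so no group was free of virus. The paper states, citing earlier work, that the H3.3Q5A construct gives nuclear protein in adult neurons. The sources used here name no promoter, do not say which cells of the punch took up the vector, and name the vector as AAV2 in the methods and as lentiviral in the description of the series.

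The tissue was a punch of GFP-fluorescent VTA, so each library was a mixture of all cells in the punch, and for every value below fewer cells of a type and less RNA per cell cannot be told apart. The libraries held 24308953 to 71104049 reads on genes, with a median of 42574786. Values are given on the variance-stabilized scale of the deposited table, which is close to log2 and on which a gene without reads lies at 5.73, and a log2 fold change is a difference of group means on that scale. Each of the 5 genes had at least 117 reads in every mapped rat, the lowest count being one of Loxl1. Single libraries lay far from the rest of their group, by the gap to the nearest rat over the range of the group, in 0.505% to 3.11% of the genes tested (median 1.01%), with heroin H3.3Q5A rat 21 and saline empty rat 18 (2.76%) at the top. One more saline library, whose labels name H3.3Q5A in one place and H3.3 WT in another, was put in no group. Names could be given to 1997 genes, those in the readable part of the study's gene table, whose order follows how far saline rats with H3.3 WT lay from saline rats with the empty vector. The genes that have names, the 5 members included, are therefore genes that stood out in those libraries. Th and Slc6a3, which define dopamine neurons of the VTA, and the markers of neurons in general were not among the names, so the labelled tissue was not checked against them here.

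The extracellular matrix of the adult brain is sparse between cells and dense around blood vessels and in the meninges. Fibroblasts of the meninges and of the outer vessel wall secrete fibrillar collagen, while endothelial and mural cells contribute fibronectin and the basement membrane on which they sit. Matrix proteins are secreted, assembled into fibers, cross-linked and later cut again, and the 5 genes stand at different points of that cycle.

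Col1a1 (ENSRNOG00000003897, chr10:82745800-82762789 on the plus strand of rn6) codes for the alpha-1 chain of type I collagen, the main fibrillar collagen and a product of fibroblasts. Fn1 (ENSRNOG00000014288, chr9:78900102-78969078, minus strand) codes for fibronectin, a glycoprotein that binds integrins and collagen. Nid2 (ENSRNOG00000000341, chr15:4894212-4951917, minus strand) codes for nidogen 2, which links laminin and type IV collagen in basement membranes. Loxl1 (ENSRNOG00000008680, chr8:63067299-63092009, minus strand) codes for a lysyl oxidase that cross-links elastin and collagen. Mmp14 (ENSRNOG00000010947, chr15:33074440-33083655, plus strand) codes for a membrane-bound matrix metalloproteinase that cuts collagen and activates other proteases. Values were taken over the whole gene, so exons and transcripts were not separated. Nid2 has 14 related entries on 4 chromosomes in the RefSeq annotation of the newer build GRCr8, 11 of them pseudogenes, and reads that aligned to several places were removed by the authors, so its level is uncertain.

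Of the 5 genes, Loxl1 had a promoter sequence in the RefSeq table used here, and it is shown because it is the DNA just upstream of a gene whose values are compared below. The run covers the 250 bases before the start of Loxl1 on the minus strand of GRCr8, at chr8:67612225-67612474, written 5′ to 3′ with CpG pairs in capitals.
Loxl1 promoter: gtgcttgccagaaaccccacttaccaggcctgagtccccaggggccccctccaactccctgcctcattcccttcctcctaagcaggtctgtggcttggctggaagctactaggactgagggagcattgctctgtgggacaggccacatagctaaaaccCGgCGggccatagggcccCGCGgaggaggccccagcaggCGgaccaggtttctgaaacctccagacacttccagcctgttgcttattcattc
It held 5 CpG pairs, and the median over 33469 rat promoters of the same length was also 5. Its GC content was 60.4%, against a median of 51.2%. On both strands it held no TATAAA (present in 12.9% of these promoters), no CCAAT (34.0%), no GGGCGG (30.5%) and no TGANTCA (6.34%). These counts describe the letters of this window and were set against no value of the rats.

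Across the 44 rats, Col1a1 had the widest range of the 5 genes and Nid2 the narrowest (SD 0.963 and 0.371 on the log2-like scale). The group that a rat belonged to took up 47.6% of the spread of Col1a1, 38.1% of that of Fn1, 47.3% for Loxl1, 54.2% for Mmp14 and 43.1% for Nid2. The rest of the spread lay between rats of the same group.

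**Figure D1:**
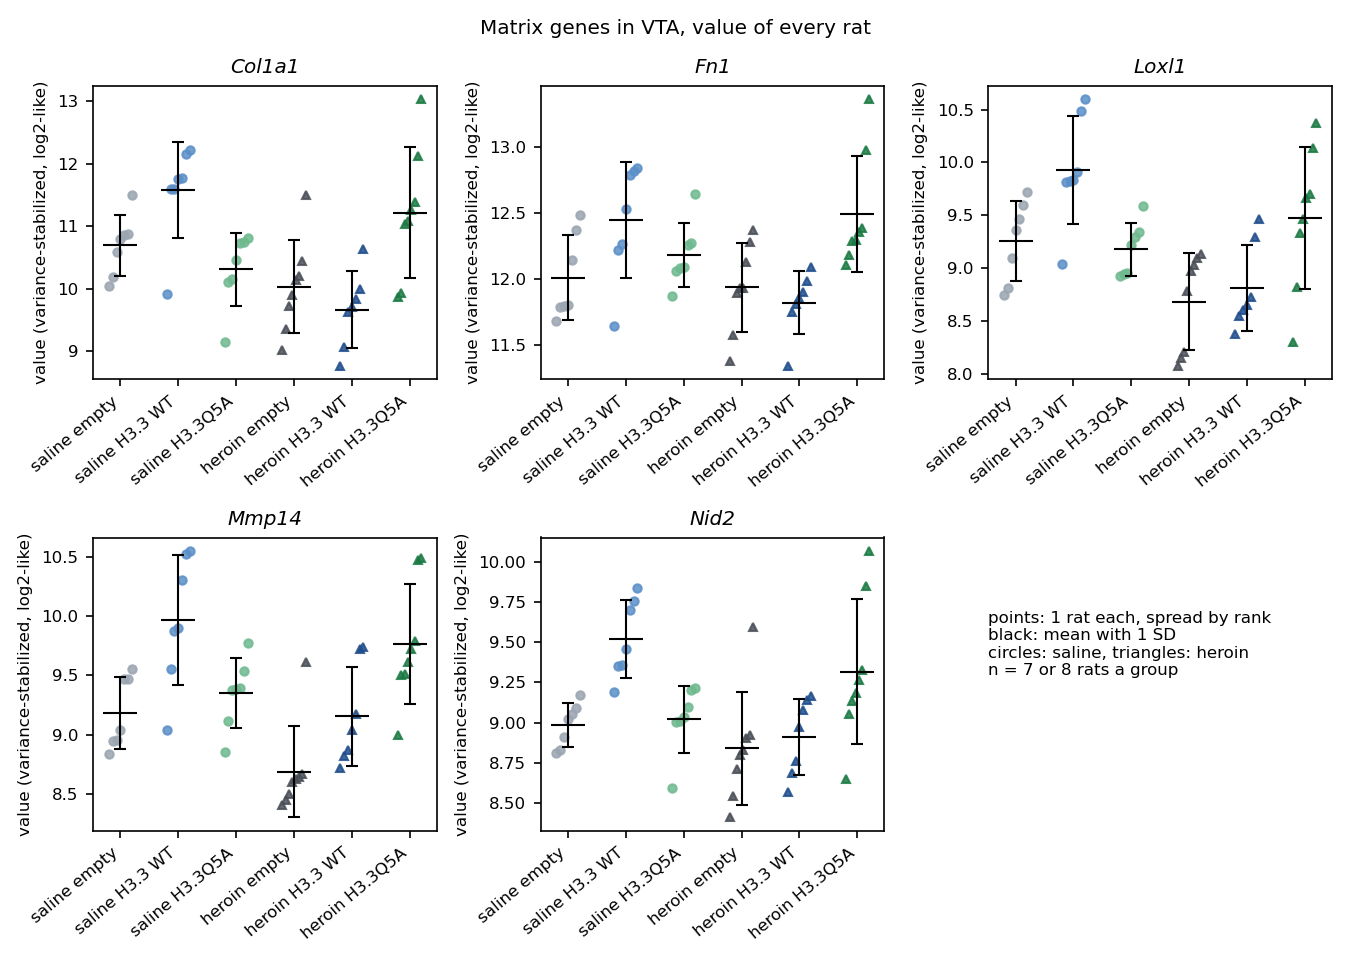
Value of each of the 5 genes in every rat, on the variance-stabilized log2-like scale, with 1 panel per gene, 1 point per rat and the mean with 1 SD in black for each of the 6 groups. The means of rats with H3.3 WT after saline and with H3.3Q5A after heroin are the highest pair in each panel, saline H3.3 WT rat 27 lies below the other rats of its group in every panel, and heroin empty rat 5 lies above its group in every panel.

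Col1a1, the fibrillar collagen gene, lay between 10.05 and 11.50 in saline empty rats (median 10.79) and between 9.02 and 11.51 in heroin empty rats (median 10.02). With H3.3 WT it lay between 9.93 and 12.22 after saline (median 11.76) and between 8.77 and 10.64 after heroin (median 9.71). With H3.3Q5A it lay between 9.15 and 10.81 after saline (median 10.47) and between 9.87 and 13.03 after heroin (median 11.18). Heroin rats were thus mostly the lower ones with H3.3 WT, where 6 of 7 saline rats exceeded the highest heroin rat and saline rat 27 lay below heroin rats 1 and 3. They were mostly the higher ones with H3.3Q5A, where 6 of 8 heroin rats exceeded the highest saline rat. The group means ran from 11.58 ± 0.770 (SD, n = 7) with H3.3 WT after saline to 9.67 ± 0.612 (SD, n = 7) with H3.3 WT after heroin.

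Fn1, the fibronectin gene, lay between 11.68 and 12.48 in saline empty rats (median 11.80) and between 11.38 and 12.37 in heroin empty rats (median 11.93). With H3.3 WT it lay between 11.65 and 12.84 after saline (median 12.53) and between 11.34 and 12.09 after heroin (median 11.86). With H3.3Q5A it lay between 11.87 and 12.64 after saline (median 12.09) and between 12.11 and 13.36 after heroin (median 12.32). Empty vector rats overlapped almost wholly, and 6 of 7 saline H3.3 WT rats lay above every heroin H3.3 WT rat. Fn1 had its highest mean in heroin H3.3Q5A rats, 12.49 ± 0.437 (SD, n = 8), and its lowest in heroin H3.3 WT rats, 11.82 ± 0.239 (SD, n = 7).

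Nid2, the basement membrane linker, lay between 8.81 and 9.17 in saline empty rats (median 9.02) and between 8.41 and 9.59 in heroin empty rats (median 8.82). With H3.3 WT it lay between 9.19 and 9.84 after saline (median 9.46) and between 8.57 and 9.17 after heroin (median 8.97). With H3.3Q5A it lay between 8.59 and 9.21 after saline (median 9.04) and between 8.65 and 10.07 after heroin (median 9.23). The saline and heroin ranges did not overlap in H3.3 WT rats. Group means ran from 9.52 ± 0.244 (SD, n = 7) with H3.3 WT after saline to 8.84 ± 0.353 (SD, n = 8) in heroin empty rats.

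Loxl1, the cross-linking enzyme, lay between 8.75 and 9.72 in saline empty rats (median 9.36) and between 8.08 and 9.13 in heroin empty rats (median 8.88). With H3.3 WT it lay between 9.04 and 10.60 after saline (median 9.84) and between 8.37 and 9.46 after heroin (median 8.65). With H3.3Q5A it lay between 8.92 and 9.58 after saline (median 9.22) and between 8.30 and 10.38 after heroin (median 9.57). Heroin H3.3Q5A rats enclosed the saline H3.3Q5A rats on both sides. Group means ran from 9.93 ± 0.513 (SD, n = 7) with H3.3 WT after saline to 8.68 ± 0.458 (SD, n = 8) in heroin empty rats.

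Mmp14, the membrane protease, lay between 8.84 and 9.55 in saline empty rats (median 9.04) and between 8.41 and 9.61 in heroin empty rats (median 8.62). With H3.3 WT it lay between 9.04 and 10.55 after saline (median 9.90) and between 8.72 and 9.74 after heroin (median 9.04). With H3.3Q5A it lay between 8.86 and 9.77 after saline (median 9.39) and between 8.997 and 10.49 after heroin (median 9.67). In empty vector rats, 7 of 8 heroin rats lay below the lowest saline rat, and the remaining heroin rat, number 5, lay above the highest. Mmp14 had the lowest group mean in heroin empty rats, 8.69 ± 0.386 (SD, n = 8), which was 0.464 below the next group in the order, H3.3 WT after heroin.

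The order of the group means was similar in the 5 genes, with H3.3 WT after saline and H3.3Q5A after heroin as the highest pair in each gene. At the low end stood the empty vector after heroin (Loxl1, Mmp14, Nid2) or H3.3 WT after heroin (Col1a1, Fn1). The gap of Mmp14 at the low end, from heroin rats with H3.3 WT to heroin rats with the empty vector, was the only one of the 25 gaps between neighbours in that order to exceed the pooled within-group SD (0.421). Neighbouring groups of the other 4 genes did not differ beyond their spread.

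In the comparison of heroin with saline, which asks what heroin SA left behind after abstinence within each vector, the 5 genes fell in H3.3 WT rats. Col1a1 fell by 1.91 on the log2 scale (SE 0.378), a ratio of 0.266 on this scale, with an adjusted p of 0.0031 in limma. Loxl1 fell by 1.12 (SE 0.241, adjusted p 0.0052) and Mmp14 by 0.81 (SE 0.216, adjusted p 0.028). Transcripts of a collagen chain, a cross-linker and a protease were thus lower in the same rats. Fn1 fell by 0.62 (SE 0.178, adjusted p 0.042), and Nid2 by 0.61 (SE 0.153, adjusted p 0.019). All 7 heroin rats lay below the saline mean in each gene. Thus 5 of 5 members were called lower, where 2.45% of all genes tested were called lower (a gene counted as called when its adjusted p was under 0.05 and its log2 fold change exceeded 0.2 in size). The median of the 5 was -0.81, against 0.0013 for all genes tested. Because the saline H3.3 WT libraries also decided which genes had names, the direction of this comparison was favoured by the choice of genes.

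The calls of Col1a1 and Loxl1 in H3.3 WT rats held whichever of the 44 rats was left out. The count of members called was 2 without saline H3.3 WT rat 4 or 49 or heroin H3.3 WT rat 9, and 3 without saline H3.3 WT rat 44 or 50 or heroin H3.3 WT rat 3, 11 or 38. Counting the unassigned saline library as H3.3 WT, as its treatment label has it, left 1 member called, and fitting only the groups compared left 3.

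In empty vector rats the 5 differences were also negative, but 0 members were called by limma or by voom, with 0.155% of all genes called by limma. Loxl1 had a log2 fold change of -0.57 (SE 0.233, adjusted p 0.17) and Mmp14 of -0.49 (SE 0.209, adjusted p 0.20), and these 2 had an unadjusted p under 0.05. Col1a1 had -0.66 (SE 0.366, adjusted p 0.34), Nid2 -0.14 (SE 0.149, adjusted p 0.66) and Fn1 -0.07 (SE 0.172, adjusted p 0.87). The 95% interval of Col1a1 reached from -1.395 to 0.08, which holds both no change and a large fall.

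In H3.3Q5A rats the 5 differences between heroin and saline were positive, and 0 members were called by limma or by voom, with 0.505% of all genes called by limma. Col1a1 had the largest, 0.91 (SE 0.366, adjusted p 0.15), and was the member with an unadjusted p under 0.05. Mmp14 had 0.41 (SE 0.209, adjusted p 0.26), Fn1 0.31 (SE 0.172, adjusted p 0.32), Nid2 0.30 (SE 0.149, adjusted p 0.26) and Loxl1 0.29 (SE 0.233, adjusted p 0.51). The heroin rats were spread widely here, with rats 25 and 26 as the highest pair in each of the 5 genes (12.13 and 13.03 in Col1a1). Rats 21 and 24 were the lowest pair for Col1a1 (9.87 and 9.93), Loxl1 and Mmp14, and rats 24 and 43 for Fn1 and Nid2. No library of this comparison decided which genes had names.

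Among heroin rats, H3.3Q5A was set against the empty vector to ask what blocking the histone site changed after heroin, and the 5 genes were higher with H3.3Q5A. Mmp14 was 1.07 higher on the log2 scale (SE 0.202, limma adjusted p 0.0046), a ratio of 2.106 on this scale, and all 8 H3.3Q5A rats lay above the mean of the empty rats. Col1a1 was 1.18 higher (SE 0.353, adjusted p 0.048), with 6 of 8 rats above that mean. Mmp14 and Col1a1 thus differed most, and Col1a1 had the wider error. Loxl1 was 0.79 higher (SE 0.225, adjusted p 0.037), Fn1 0.56 (SE 0.166, adjusted p 0.047) and Nid2 0.48 (SE 0.144, adjusted p 0.049). So 5 of 5 members were called higher, where 2.41% of all genes were, and the median of the 5 was 0.793 against 0.0066 for all genes tested. No library here belongs to the saline groups by which names became readable, and the same holds for the comparison with H3.3 WT after heroin. The members were chosen with earlier results of these data known, however, so in neither comparison were they picked blind to the values.

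Mmp14 was the member whose call in this comparison held in all 44 fits that left out a rat. Its call also held under all 13 other settings that gave it a value. The settings with 1 or 3 residual factors could not change its difference, since those factors came from values with group means removed. The adjusted p of the other 4 members lay between 0.037 and 0.049, and their calls held in 15 (Col1a1, Nid2), 21 (Fn1) and 35 (Loxl1) of the 44 fits. The count of members called was 1 in the fit of only the groups compared, with voom on the recovered reads, with the read total as a covariate, or without any of heroin empty rats 6, 7, 14 and 16 and heroin H3.3Q5A rats 25, 26, 37 and 39. It was 2 without any of 13 other rats and 3 without any of 7.

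Against H3.3 WT in heroin rats, which controls for expression of an H3.3 histone, the 5 genes were also higher with H3.3Q5A, and 2 of them were called, with 2.02% of all genes called higher. Col1a1 was 1.55 higher (SE 0.366, limma adjusted p 0.016), a ratio of 2.93 on this scale, with 8 of 8 rats above the mean of the H3.3 WT rats. Fn1 was 0.67 higher (SE 0.172, adjusted p 0.024), and its ranges in the groups did not overlap. The called pair are the genes of fibrillar collagen and of the glycoprotein that binds it, and the members were not tested against each other. Loxl1 had a difference of 0.67 (SE 0.233, adjusted p 0.10), Mmp14 of 0.61 (SE 0.209, adjusted p 0.091) and Nid2 of 0.41 (SE 0.149, adjusted p 0.12), with an unadjusted p under 0.05 in each. No member was called without heroin H3.3Q5A rat 25 or without rat 26, the rats with the highest values, 1 was called without heroin H3.3 WT rat 11 or 38, and 4 were called without heroin H3.3Q5A rat 24. No member was called in the fit of only these groups.

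For H3.3 WT vs. empty in heroin rats limma and voom called 0 members each, with 0% of all genes called by limma and 1 member, Mmp14, with an unadjusted p under 0.05. Its log2 fold change was 0.46 (SE 0.209, adjusted p 0.86), with 7 of 7 H3.3 WT rats above the mean of the empty rats. The other 4 lay between -0.37 for Col1a1 and 0.13 for Loxl1. The 95% interval for Col1a1 ran from -1.11 to 0.37.

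**Figure D2:**
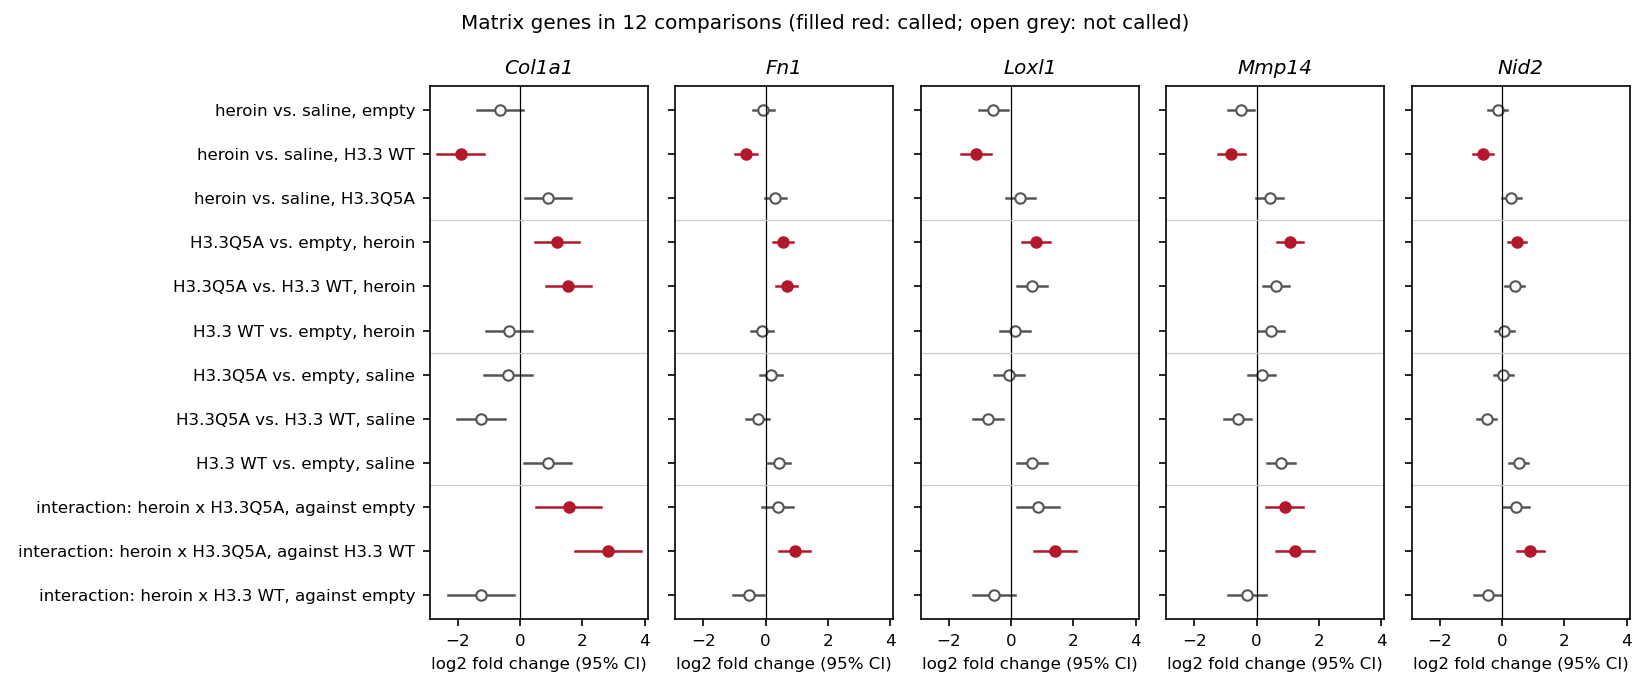
Log2 fold change of the 5 genes (x axis, with the 95% confidence interval) in the 9 comparisons between groups and the 3 interactions (y axis), filled red where called and open grey where not. The filled points are negative for heroin vs. saline with H3.3 WT and positive for H3.3Q5A in heroin rats and for the interactions with H3.3Q5A, and the interval of Col1a1 is the widest in each row.

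Among saline rats neither limma nor voom called a member for H3.3Q5A. H3.3Q5A against empty gave log2 fold changes from -0.38 for Col1a1 to 0.17 for Fn1, 0 members with an unadjusted p under 0.05, and 4.94% of all genes called. H3.3Q5A against H3.3 WT gave 5 negative differences, from -1.27 for Col1a1 (SE 0.378, adjusted p 0.13) to -0.26 for Fn1 (SE 0.178, adjusted p 0.61). The choice of genes favoured this direction too, through the saline H3.3 WT libraries. In that comparison 0.00886% of all genes were called, 4 members had an unadjusted p under 0.05, and 4 were called once saline H3.3 WT rat 27, whose 5 values were the lowest of its group, was left out. For H3.3 WT against empty, the contrast by which the names were ordered, the values are a description, with differences from 0.44 for Fn1 to 0.88 for Col1a1 and 0% of all genes called.

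Whether the effect of heroin differed between vectors was tested as an interaction, the difference between the heroin-minus-saline changes of 2 vectors. Between H3.3Q5A and H3.3 WT that difference was called in 5 of 5 members, with 4.75% of all genes called in this direction. Col1a1 had the largest, 2.82 on the log2 scale (SE 0.5257, limma adjusted p 0.00066), made up of a difference of 0.91 that was not called and a fall of 1.91. Loxl1 had 1.42 (SE 0.335, adjusted p 0.0055), Mmp14 1.23 (SE 0.300, adjusted p 0.0072), Fn1 0.93 (SE 0.247, adjusted p 0.014) and Nid2 0.91 (SE 0.214, adjusted p 0.0053). All 5 calls held without any single rat and under all 13 other settings that gave them a value. Among these settings, 1 or 3 residual factors could not move the differences, because the factors came from values with group means removed. The saline H3.3 WT libraries are part of this interaction test, so the choice of genes favoured its direction too.

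Between H3.3Q5A and empty vector the interaction was called in 2 of 5 members, where 6.93% of all genes were called in this direction. Col1a1 had 1.56 (SE 0.517, limma adjusted p 0.036) and Mmp14 0.91 (SE 0.295, adjusted p 0.033). Loxl1 had 0.87 (SE 0.330, adjusted p 0.069), Nid2 0.44 (SE 0.210, adjusted p 0.16) and Fn1 0.38 (SE 0.243, adjusted p 0.31). The genes were not tested against each other. Col1a1 and Mmp14 passed the threshold, while Loxl1, with a value near that of Mmp14, did not. Neither call held without saline empty rat 13 or 42, saline H3.3Q5A rat 33, heroin empty rat 7 or heroin H3.3Q5A rat 25 or 26, nor with the read total as a covariate or the unassigned library counted by its treatment label, and 1 held without saline empty rat 10 or 15, saline H3.3Q5A rat 32 or heroin empty rat 2. Between H3.3 WT and empty vector limma and voom called 0 members, with 0% of all genes called by limma, with values from -1.25 for Col1a1 to -0.32 for Mmp14, an adjusted p of 0.91 for each, and 3 members with an unadjusted p under 0.05.

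The 5 genes also moved together from rat to rat within groups. After the group means were subtracted, the 10 pairs had a Pearson r from 0.444 (Loxl1 and Nid2) to 0.858 (Col1a1 and Nid2) over 44 rats, and the largest adjusted p of r was 0.013 in a two-sided permutation test that shuffled rats within groups. The smallest p that these permutations can give is 1e-05. Spearman's rho ran from 0.313 (Fn1 and Mmp14, permutation adjusted p 0.05) to 0.797 (Col1a1 and Nid2). A rat with much fibrillar collagen transcript thus had much nidogen 2 transcript, and the cross-linker tracked nidogen least. Without the 2 rats farthest from the median of the first gene, r ran from 0.325 (Fn1 and Mmp14) to 0.836 (Col1a1 and Nid2). The same rats lay at the edges of their groups in several genes. Saline empty rat 13 and heroin empty rat 5 were the highest of their groups in 5 of 5 genes. Heroin H3.3Q5A rat 26 was the highest of its group in 4, and saline H3.3 WT rat 27 the lowest in 5. Saline H3.3Q5A rat 33, by contrast, was the lowest of its group in 3 genes and the highest in 1, Loxl1.

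**Figure D3:**
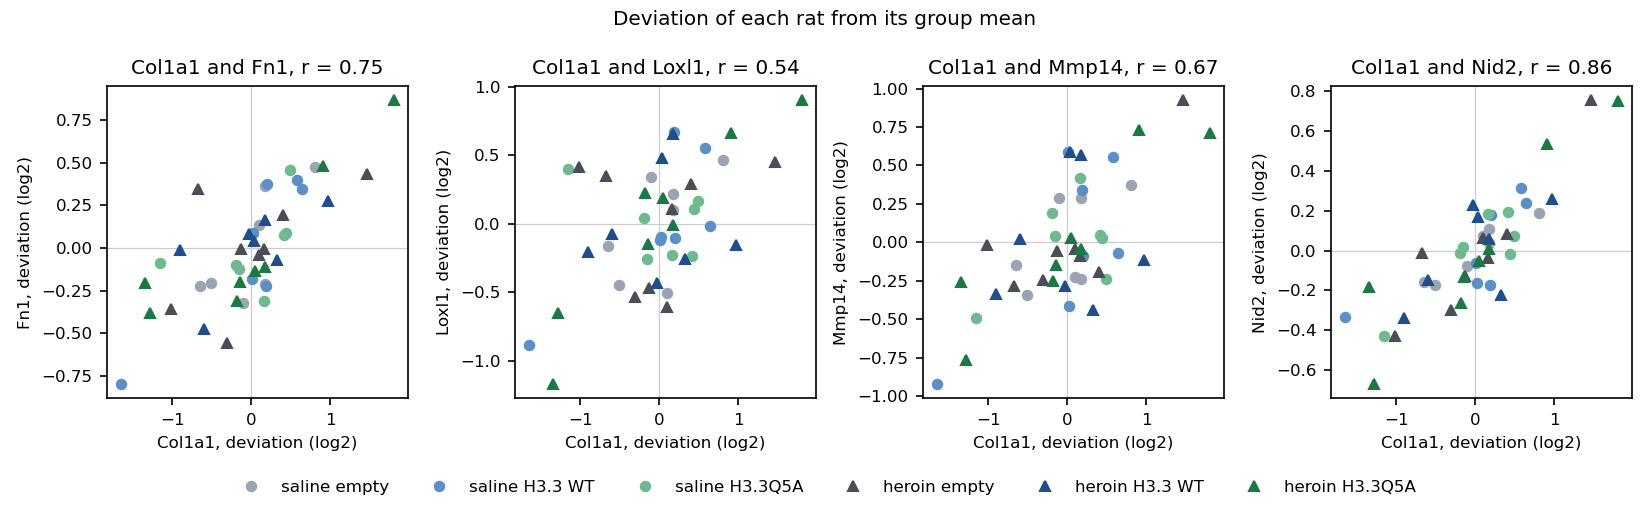
Deviation of each rat from its group mean for Col1a1 (x axis) and, in the 4 panels, Fn1, Loxl1, Mmp14 and Nid2 (y axis), in log2 units with 1 point per rat coloured by group. Points rise from left to right in all panels, most tightly for Nid2 (r = 0.86) and most loosely for Loxl1 (r = 0.54), and heroin H3.3Q5A rat 26 lies farthest right.

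Among the named genes, those whose within-group deviations were most like a member's differed from member to member. For Col1a1 they were Fbln1, which codes for fibulin 1 of elastic fibers (r = 0.937 over 44 rats), Mrc2, a receptor that takes up collagen (0.935), and Lrrc32, which holds latent TGF-beta at the cell surface (0.932). For Fn1 they were Cdh5, the cadherin of endothelial junctions (0.885), Anpep, an aminopeptidase of the cell surface (0.864), and Pear1, a receptor known from platelets and endothelium (0.839). For Nid2 they were Asap3 (0.874), the insulin-like growth factor binding protein gene Igfbp2 (0.859) and Cdh5 (0.857). The genes nearest to Fn1 and Nid2 thus shared Cdh5, and none of the 3 nearest to Col1a1 was among them. For Loxl1 they were Vasn, which codes for a TGF-beta binding protein (0.903), Il34, a ligand of the CSF1 receptor (0.889), and Creb3l1, a transcription factor that acts on collagen genes (0.888). For Mmp14 they were Rhoj, a small GTPase of endothelial cells (0.805), Bcat2, an aminotransferase of branched-chain amino acids (0.780), and the laminin gene Lamb2 (0.742). The first 3 genes for Col1a1 over all genes tested had no names and reached 0.949 to 0.952. These correlations are descriptions over libraries that differ in depth.

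Of 129 other matrix genes in 8 lists, 25 could be named and tested, and none of the 13 fibrillar collagens of these lists was among them. For heroin vs. saline with H3.3 WT, 7 of the 25 were called lower and 0 higher, with a median of -0.197, beside 2.45% and a median of 0.0013 over all genes tested. The genes with names are no even sample of these lists, for the reason given for the 5 members. The elastic fiber and matricellular list held most of them, with 4 of 6 named members lower, led by Fbln1 (-1.53, SE 0.269, limma adjusted p 0.0029) and Thbs2, a thrombospondin that binds matrix proteases (-1.11, SE 0.226, adjusted p 0.0035). Lamb2, a laminin chain of vessel basement membranes, fell by 0.61 (SE 0.129, adjusted p 0.0046). Serpinh1, the chaperone that folds collagen, fell by 0.50 (SE 0.109, adjusted p 0.0055), and Ccn1, a matricellular target of TGF-beta, fell by 0.60 (SE 0.168, adjusted p 0.039). These last 3 had the direction of the 5 members, and came from the basement membrane list (1 of 1), collagen processing (1 of 2) and the TGF-beta pathway (1 of 5). None of the 4 named metalloproteinases and inhibitors, 3 proteoglycans or 4 matrix receptors was called.

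With H3.3Q5A against empty in heroin rats, 4 of the 25 were called higher and 0 lower (2.41% of all genes were called higher), with a median of 0.159. They were Fbln1 (1.17, SE 0.252, limma adjusted p 0.0086), Thbs2 (0.96, SE 0.212, adjusted p 0.010), Lamb2 (0.50, SE 0.120, adjusted p 0.017) and Serpinh1 (0.47, SE 0.102, adjusted p 0.0087). Against H3.3 WT, 5 were called higher and 0 lower (2.02% and 0.687% of all genes), the same 4 genes and Ecm1. These 4 were named for their calls in the other comparisons, and Ecm1 was named after its values were seen. In saline rats, H3.3Q5A against empty gave more calls, with 7 of the 25 higher and 0 lower (3.23% of all genes were called higher) and a median of 0.192. They were Plod1, Hapln2, Itgb5, Ddr1, Tgfbr2, Eng and Smad7, named after their values were seen, and none of them was among the 4 called in heroin rats. The saline empty libraries of this comparison also decided which genes had names, so the choice of genes favoured higher calls. Heroin vs. saline gave 0 calls among the 25 with the empty vector (0.155% of all genes) and 0 with H3.3Q5A (0.505%).

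The interaction between H3.3Q5A and H3.3 WT was called higher in 8 of the 25 and lower in 1, with 4.75% of all genes called higher and 3.19% lower. The saline H3.3 WT libraries are part of it, so the choice of genes favoured higher calls. Fbln1 had 2.30 (SE 0.375, limma adjusted p 0.00039), Thbs2 1.73 (SE 0.315, adjusted p 0.00056), Lamb2 0.93 (SE 0.179, adjusted p 0.00081), Serpinh1 0.80 (SE 0.152, adjusted p 0.000735) and Ccn1 0.84 (SE 0.234, adjusted p 0.020). The lower one, a number near the share over all genes, was Hapln2, a link protein at nodes of Ranvier made by oligodendrocytes (-0.81, SE 0.258, adjusted p 0.041). Against empty vector 5 were called higher and 2 lower, with 6.93% of all genes called higher and 7.03% lower, so that the number of lower calls was near the share over all genes. Lower calls were favoured there by the choice of genes, through the saline empty libraries. The higher ones included Fbln1 (1.61, SE 0.369, adjusted p 0.0039), Lamb2 (0.64, SE 0.176, adjusted p 0.011) and Thbs2 (1.08, SE 0.310, adjusted p 0.016). The lower ones were Hapln2 (-1.08, SE 0.254, adjusted p 0.0045) and Ddr1, a collagen receptor kinase also found on oligodendrocytes (-0.70, SE 0.219, adjusted p 0.027).

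Markers of meningeal and perivascular fibroblasts moved with the 5 genes. Of 16 such markers 8 were named, and all 8 were called lower for heroin vs. saline with H3.3 WT (median -1.16), where 2.45% of all genes were. As for the 5 members, the saline H3.3 WT libraries of this comparison also decided which markers had names. In heroin rats 7 of 8 were called higher with H3.3Q5A than with empty vector (median 0.864, 2.41% of all genes) and 6 of 8 higher than with H3.3 WT (median 0.849, 2.02% of all genes). The interaction with H3.3Q5A was called higher in 8 of 8 against H3.3 WT (4.75% of all genes) and in 6 of 8 against empty (6.93%). The saline H3.3 WT libraries are part of the interaction against H3.3 WT, so the choice of genes favoured its direction. The summed normalized reads of the 8 ran from 27660 to 161200 in saline H3.3 WT rats (median 123500) and from 14310 to 47230 in heroin H3.3 WT rats (median 26010). They ran from 22380 to 174600 in heroin H3.3Q5A rats (median 94700) and from 11900 to 56620 in heroin empty rats (median 29040). Ptgds, a prostaglandin synthase that other cells of the brain also express, made up 86.8% of the sum. Saline empty rats had 44080 to 87670 (median 54580) and saline H3.3Q5A rats 23950 to 77110 (median 42810). The medians of these sums had the same pair of groups highest and the same pair lowest as the means of the 5 genes.

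Within groups, the mean value of the 8 fibroblast markers followed Col1a1 with r = 0.924 over 44 rats, Fn1 with 0.791, Nid2 with 0.784, Loxl1 with 0.644 and Mmp14 with 0.619. The adjusted p of these r was at most 0.00026 in the two-sided permutation test within groups, over the 10 relations with this list and the oligodendrocyte list. Spearman's rho was 0.872, 0.759, 0.723, 0.531 and 0.479 in that order, with an adjusted permutation p of at most 0.0045, and without the 2 rats farthest from the marker median r lay between 0.505 and 0.903. The mean of 8 oligodendrocyte markers had r from -0.421 with Loxl1 (permutation adjusted p 0.02) to 0.158 with Nid2 (adjusted p 0.46). For Loxl1, rho was -0.313 (permutation adjusted p 0.094), and r was -0.284 without the 2 farthest rats. The marker list holds Igfbp2, one of the genes most like Nid2, and no member or other matrix gene of the lists. Its 8 named markers had reads in all groups, and 8 further markers had no name here. The part of the fibroblast markers in the results of the 5 genes was not tested.

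**Figure D4:**
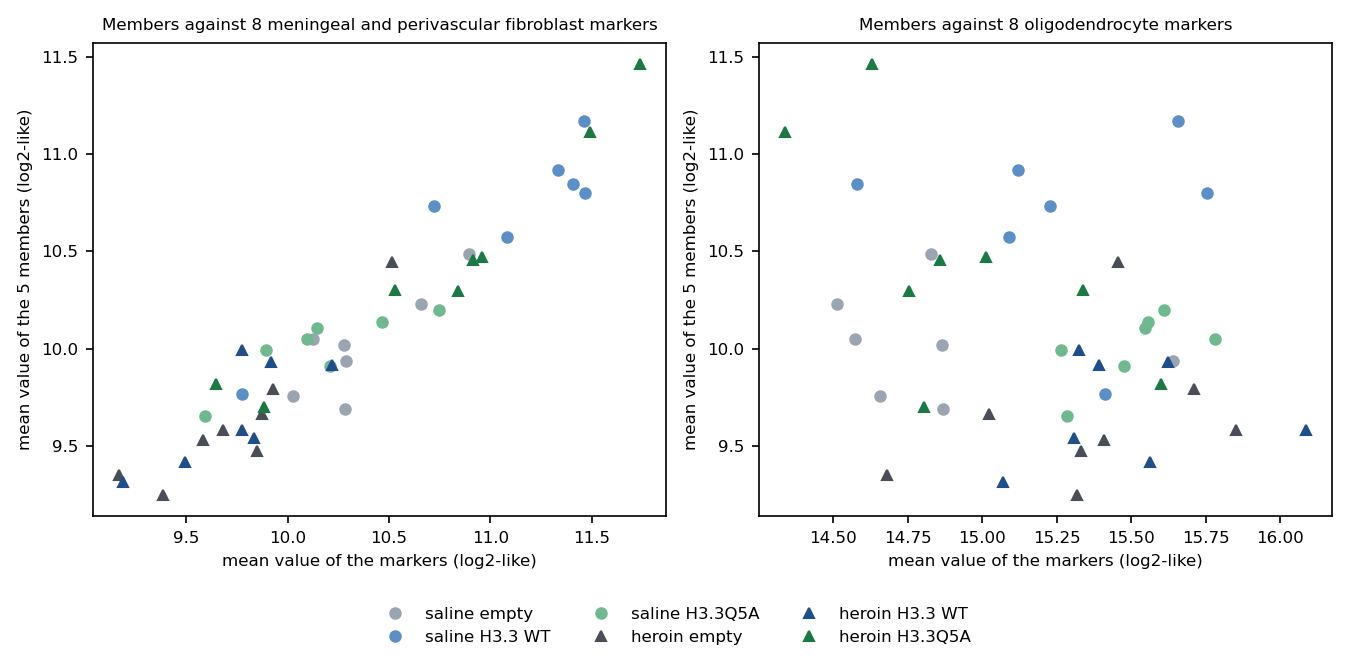
Mean value of the 5 genes per rat (y axis) against the mean value of 8 meningeal and perivascular fibroblast markers (left) and of 8 oligodendrocyte markers (right), all on the log2-like scale, with 1 point per rat coloured by group. On the left the rats of all groups lie along a rising band, with its top right end held by rats given H3.3 WT after saline or H3.3Q5A after heroin, though 3 of these 15 rats (saline H3.3 WT rat 27 and heroin H3.3Q5A rats 21 and 24) lie in its lower part, and on the right they are scattered.

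Other cell types moved less regularly with the 5 genes. For heroin vs. saline with H3.3 WT, 3 of 6 named mural markers, 1 of 6 endothelial and 3 of 5 blood markers were called lower (2.45% of all genes) and 0 of 8 oligodendrocyte markers were called. Tagln, a smooth muscle protein and the mural marker with the highest level, fell by 1.80 there (SE 0.351, limma adjusted p 0.0031), and Hba-a1, a hemoglobin chain, by 1.21 (SE 0.355, adjusted p 0.0496). For H3.3Q5A vs. empty in heroin rats, 0 of 6 mural, 2 of 6 endothelial, 0 of 5 blood and 0 of 8 oligodendrocyte markers were called higher (2.41% of all genes). For the interaction with H3.3Q5A, oligodendrocyte markers were called lower in 8 of 8 against empty (7.03% of all genes) and 5 of 8 against H3.3 WT (3.19%), opposite in sign to the 5 genes. Among saline rats 6 of 8 were called higher with H3.3Q5A than with empty vector (3.23% of all genes). The saline empty libraries of this comparison and of the interaction against empty also decided which markers had names. The choice of genes thus favoured the directions of both. In the interactions Mbp, a myelin protein, had -1.12 against empty (SE 0.264, adjusted p 0.0045) and -0.82 against H3.3 WT (SE 0.269, adjusted p 0.049). Against H3.3 WT, 5 of 5 blood, 3 of 6 mural and 1 of 6 endothelial markers were called higher (4.75% of all genes), and against empty 1 of 6 mural markers was called lower. These directions, and the lower calls for heroin vs. saline with H3.3 WT, were favoured by the choice of genes through the saline libraries. The summed reads of 2 pituitary markers, led by the hormone subunit gene Cga (interaction against H3.3 WT 3.14, SE 1.02, limma adjusted p 0.048), ran from 14.3 to 9155 over all rats, with the highest in a saline empty rat. The named microglial marker, Cx3cr1, was called lower in the interaction against empty (-0.50, SE 0.167, adjusted p 0.037). No astrocyte or choroid plexus marker of the lists had a name. The part of these cell types in the results was not tested either.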

How the data were processed

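RNA was sequenced from VTA punches of 45 rats (polyA TruSeq libraries, reads of 2 flow cells joined), of which 44 were assigned to a group by their labels. Per the submitters' notes and the methods, the authors used HISAT2 2.1.0 for alignment to rn6, removed reads that aligned to several places, counted genes of Ensembl release 90 with featureCounts 2.0.1 and transformed the counts with DESeq2 2.11.40.6. The deposited values are variance-stabilized log2 values in which the authors had already scaled the libraries. This scale understates the fold of genes with few reads. The methods name RUVr without a number of factors, so no factor was removed in the main analysis. The kit does not keep strand. Inverting the transformation gave whole reads for 100% of values (tolerance 0.01), 24308953 to 71104049 per rat. Among 140 pairs of rats of a group none had near-identical counts. The labels number the rats but say no more about their origin, so p-values measure the spread between these libraries.

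The 22570 genes with a value over the table's lowest in 7 or more rats were fitted with limma 3.58.1 in R 4.3.3 (moderated test with intensity trend, all 6 groups) for 9 comparisons and 3 interactions, with Benjamini-Hochberg adjustment over all genes tested, and called where the adjusted p was under 0.05 and the log2 fold change over 0.2 in size. Correlations used group-centered values and 100000 permutations within groups (NumPy 2.4.6, SciPy 1.17.1), with adjustment over 10 relations. The script was tested on simulated data. Alternatives were other gene filters, median centring, quantile normalization, 1 or 3 residual factors, only the groups compared and the read total as covariate. Others were voom on the recovered reads, array weights, the unassigned library counted by either label, other thresholds, Spearman's rho and leaving out each rat. The residual factors were taken from values with group means removed, so they could not change a log2 fold change.

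The members, the 8 matrix lists and the marker lists (fibroblast, mural, endothelial, oligodendrocyte, microglia, astrocyte, neuron, dopamine neuron, choroid plexus, pituitary, blood) were chosen with earlier results of these data known. Genes other than members were named where they had the lowest p of a matrix list in a direction (up to 2) for heroin vs. saline or an interaction, were among the 3 most like a member, or had the highest level of a marker list. Names came from 1997 readable rows of the study's gene table. Columns of the authors' own comparisons in that table were not used.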

Additional observations from a re-analysis of the deposited data

Results flagged for a closer look

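In 5 of 30 sets of values (5 genes in 6 groups), a rat lay far from the rest of its group by Dixon's test, where chance gives about 1.5. Col1a1 was 9.925 in saline H3.3 WT rat 27, below the 11.591 to 12.223 of the other 6 rats. In saline H3.3Q5A rat 33, Col1a1 was 9.151, with the others at 10.116 to 10.809, and Nid2 was 8.592, with the others at 9.003 to 9.213. In heroin empty rat 5, Mmp14 was 9.614, with the others at 8.409 to 8.67, and Nid2 was 9.594, with the others at 8.412 to 8.923. Rats 27 and 33 thus lay low and rat 5 lay high in collagen, nidogen or protease transcripts. In Loxl1, however, rat 33 was the highest of its group, at 9.583.

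The change from saline to heroin differed between vectors by the interaction test of limma. For H3.3Q5A against H3.3 WT the difference on the log2 scale was 2.816 for Col1a1, 0.9344 for Fn1, 1.415 for Loxl1, 1.225 for Mmp14 and 0.9052 for Nid2. For H3.3Q5A against the empty vector it was 1.563 for Col1a1 and 0.907 for Mmp14.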

How the results depend on the processing

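Of the counts of called members and the median correlation, 160 values under other settings stayed near the reported one and 24 moved. Near meant within 1.5 times for a count and within 0.1 for the correlation. For H3.3Q5A vs. empty in heroin rats (5 called), 2 were called without a gene filter and 2 with quantile normalization, and 1 each with only the groups compared, the read total as covariate, voom, or the unassigned library by its treatment label. With 3 residual factors, the counts were 3 for heroin vs. saline with empty vector, 2 for heroin vs. saline with H3.3Q5A, 5 for H3.3Q5A vs. H3.3 WT in heroin and 4 in saline, 5 for H3.3 WT vs. empty in saline (2 with 1 factor), 4 for the interaction of H3.3Q5A against empty and 2 for that of H3.3 WT. These factors came from values with group means removed, so they took up spread within groups and left the log2 fold changes as they were. The share of all genes called with them was not counted. With only the groups compared, 3 were called for heroin vs. saline with H3.3 WT and 0 for H3.3Q5A vs. H3.3 WT in heroin. The read total as covariate left 0 for the interaction of H3.3Q5A against empty. Array weights gave 1 for heroin vs. saline with empty vector and 4 for H3.3Q5A vs. H3.3 WT in heroin. The unassigned library by its treatment label left 1 for heroin vs. saline with H3.3 WT and 0 for the interaction of H3.3Q5A against empty. An adjusted p under 0.1 gave 3 for that interaction and 3 for H3.3Q5A vs. H3.3 WT in heroin. Leaving out saline empty rat 18 and heroin H3.3 WT rat 11, chosen after seeing the data, gave 3 for heroin vs. saline with H3.3 WT and 1 for H3.3Q5A vs. H3.3 WT in heroin. Heroin H3.3Q5A rat 21 stayed in that fit, though it lay apart from its group in the largest share of genes (3.11%). That share was 2.21% for heroin H3.3 WT rat 11. The median pairwise r of the members was 0.655, or 0.5451 as Spearman's rho. The causes were not tested.

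Leaving out each rat in turn gave 2 to 5 called for heroin vs. saline with H3.3 WT, 1 to 5 for H3.3Q5A vs. empty and 0 to 4 for H3.3Q5A vs. H3.3 WT in heroin, 0 to 4 for H3.3Q5A vs. H3.3 WT and 0 to 1 for H3.3 WT vs. empty in saline, and 0 to 3 for the interaction of H3.3Q5A against empty. It was 5 throughout for the interaction of H3.3Q5A against H3.3 WT, 0 throughout for the rest, and r lay between 0.600 and 0.680. The change of Fn1 with empty vector ran from -0.1348 to 0.0069 and turned sign without saline empty rat 13 (0.0068) or heroin empty rat 16, and that of Loxl1 for H3.3Q5A vs. empty in saline ran from -0.1596 to 0.0026 (without saline empty rat 13). Of single genes under the other settings, 708 values kept their side of the threshold, 40 lost and 32 gained a call. No paired analysis was possible because each rat belonged to a single group. Each member had at least 117 reads in every rat, but group depths were unequal (medians of 34513499 to 55197003 reads), and the read total as covariate removed calls as given.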

Other observations

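A further saline library, numbered 48, is H3.3Q5A by title but H3.3 WT by treatment label, and entered no comparison. Its values were 9.430 for Col1a1, 12.102 for Fn1, 8.516 for Loxl1, 8.680 for Mmp14 and 8.877 for Nid2. Those of Col1a1, Loxl1, Mmp14 and Nid2 lay below all 7 rats of the saline H3.3 WT group. Loxl1 and Mmp14 also lay below all 7 rats of the saline H3.3Q5A group, while Col1a1, Fn1 and Nid2 lay within its range.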
